A study of Mus musculus with 12 samples.

Results

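In RNA sequencing of mouse serum, 6 gene rows of chromosome 7 were described: the adult beta-globins, Hbb-bs and Hbb-bt, and their neighbours Olfr648, Olfm5, Trim6 and Olfr659. They are 6 of 53546 rows in each library, and they were chosen by name because of their counts in these same libraries: 2 of them were at 0 throughout and 4 held counts. Those counts are therefore given as a description. Samples came from normal mice and from mice bearing colorectal cancer. The labels list 6 samples in each group as biological replicates, the design text says that each mouse was a different one, and neither gives a strain, age, sex or tumour model. The labels give the tissue as serum while the deposited files are named as blood, and this conflict bears on what the globin and blood cell rows can be compared with. Cancer replicates 5 and 6 had the same values in every row and were counted as 1 sample, named replicate 6, which left 6 normal and 5 colorectal cancer libraries.

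Beta-globin is the partner of alpha-globin in haemoglobin, the oxygen carrier of red blood cells, and its messenger RNA is among the most abundant in red blood cell precursors and whole blood. Hbb-bs and Hbb-bt are the adult beta-globin genes, and Hbb-y and Hbb-bh1 are used in the embryo. The cluster is switched on by a distant locus control region and lies within a large array of olfactory receptor genes, which encode odour receptors of the nose. Trim6 encodes a ubiquitin ligase of the tripartite motif family with a role in antiviral signalling, and Olfm5 encodes a protein with an olfactomedin domain.

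In mm10 coordinates of the GENCODE M21 annotation, Hbb-bt lies at chr7:103812524-103813996 and Hbb-bs at chr7:103826534-103828096, both on the minus strand. Olfm5 (chr7:104153013-104164831) and Olfr648 (chr7:104177598-104183392) follow on the minus strand. Trim6 (chr7:104218793-104235152) and Olfr659 (chr7:104666753-104674948) lie on the plus strand. The adult beta-globin genes are shown first by sequence, because a row's count depends on whether reads can be told apart between near-identical genes. Exon 2 of both genes, at chr7:103827448-103827670 in Hbb-bs and chr7:103813439-103813661 in Hbb-bt, is wholly coding and identical over 223 bases. The sequences are those of the GENCODE M21 transcripts in mm10, minus strand, read 5′ to 3′.
Hbb-bs and Hbb-bt exon 2: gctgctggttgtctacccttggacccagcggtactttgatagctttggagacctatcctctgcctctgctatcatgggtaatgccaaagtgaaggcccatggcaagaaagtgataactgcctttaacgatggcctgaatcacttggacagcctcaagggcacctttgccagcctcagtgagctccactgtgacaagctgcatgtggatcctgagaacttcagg

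The coding sequences of 441 bases differed at 1 position, C417T from Hbb-bs to Hbb-bt, counted from 1 at the first base of the start codon. It lies in the coding part of exon 3, at chr7:103826668-103826793 in Hbb-bs and chr7:103812659-103812784 in Hbb-bt, where the capital marks the differing base.
Hbb-bs exon 3 coding part: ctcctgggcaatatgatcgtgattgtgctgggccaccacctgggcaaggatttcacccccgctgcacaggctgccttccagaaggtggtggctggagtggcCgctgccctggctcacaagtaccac
Hbb-bt exon 3 coding part: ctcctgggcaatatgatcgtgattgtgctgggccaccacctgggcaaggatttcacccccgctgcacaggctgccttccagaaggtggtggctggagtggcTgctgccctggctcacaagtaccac

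Of the 598 runs of 31 bases in the Hbb-bs transcript, 400 (66.9%) also occur in another gene, and that gene was Hbb-bt. The Hbb-bt transcript shared 400 of 673 (59.4%), again with Hbb-bs. A read from these stretches cannot be assigned to one of the pair by its sequence. Neither gene resembles the rows with counts: the longest run shared by Hbb-bs and the longer Olfr648 transcript was 12 bases, and by Hbb-bt and Olfm5 it was 11 bases. Of the longer Olfr648 transcript, 794 of 2899 runs of 31 bases (27.4%) occur in 32 other genes, so part of its reads can be shared. In Olfm5 it was 0 of 2238 runs, in the longest Trim6 transcript 15 of 3749 (0.4%) and in the longer Olfr659 transcript 43 of 4812 (0.894%).

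Hbb-bs and Hbb-bt were listed at 0 in all 11 libraries, and so were Hbb-y, Hbb-bh1 and Hbb-bh2, the other beta-like genes with a row. A count of 0 allows up to 3 counts, which is 0.427 to 1.04 CPM (counts scaled to the library total without Olfr648) and covers counting error only. The alpha-globin genes were not at 0 but were low. Hba-a1, an adult alpha-globin gene, had 22 to 69 counts per library and 449 in all, and Hba-a2, the other adult copy, had 14 in all. Hba-x, the embryonic alpha-like gene, had 38 to 154 counts per library and 924 in all. The theta-globin rows Hbq1a and Hbq1b summed to 45 and 200 counts.

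Olfr648 had the highest counts of the 6 rows in 6 libraries and at most 5150 counts in the other 5. In normal serum it held 4820, 17324370, 15233872, 3247, 4870 and 5150 counts in replicates 1 to 6. In colorectal cancer it held 11225306, 7969078, 5132, 12352755 and 8474570 counts in replicates 1, 2, 3, 4 and 6. Normal replicates 2 and 3 and cancer replicates 1, 2, 4 and 6 stood at 7969078 or more and no library lay between the sets, so that both groups hold libraries of both kinds. The row took 83.4% and 80.5% of all counts in normal replicates 2 and 3 and 53.1% to 70.8% in the 4 high cancer libraries, against 0.112% to 0.159% in the other 5 libraries. All scaled values below therefore leave Olfr648 out of the library total.

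Trim6 and Olfr659 held at least 13496 counts in all libraries but 1, where Olfr659 had 61. Trim6 had 19033, 13496, 66034, 15104, 21097 and 20715 counts in normal replicates 1 to 6, and 16064, 36353, 20625, 17820 and 36338 in cancer replicates 1, 2, 3, 4 and 6. Olfr659 had 24100, 17150, 83593, 61, 26732 and 26253 counts in the normal libraries and 20515, 46354, 26226, 22759 and 46251 in the cancer libraries. Normal replicate 3 was the highest in both rows, and normal replicate 4 stood apart in Olfr659 alone. Olfm5 was low and even by comparison, with 137, 130, 142, 151, 151 and 134 counts in the normal libraries and 65, 46, 79, 129 and 59 in the cancer libraries.

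**Figure D1:**
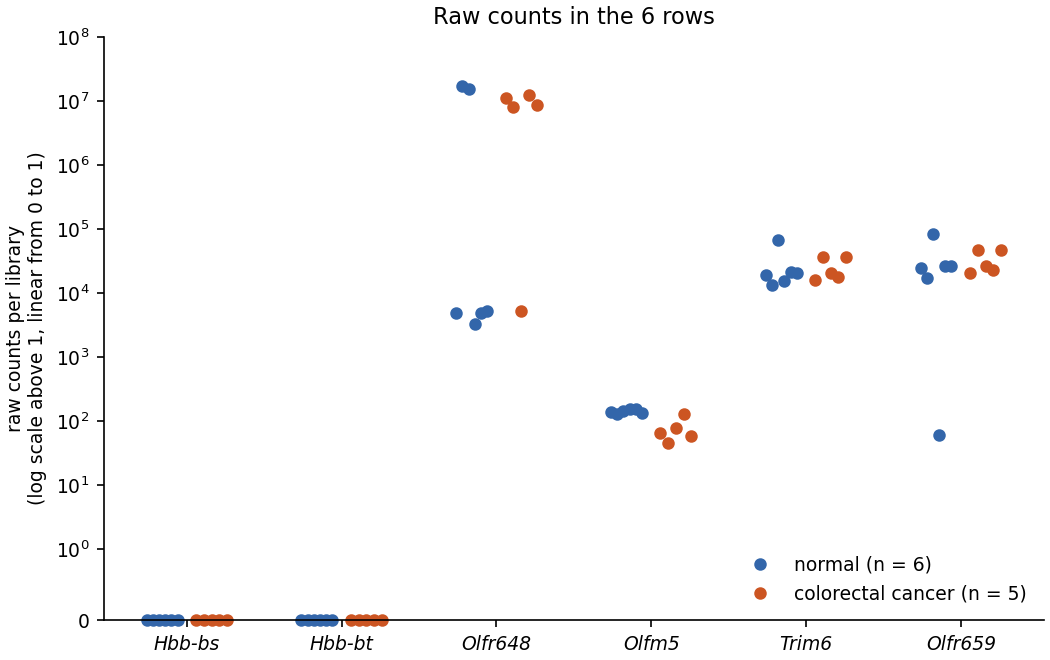
Deposited counts of the 6 rows in each of the 11 libraries, 1 point per library, with normal and colorectal cancer libraries in separate colours, on an axis that is logarithmic above 1 and linear from 0 to 1. Hbb-bs and Hbb-bt lie at 0 throughout, Olfr648 at 7969078 or more in 6 libraries and at 3247 to 5150 in the others, and Olfr659 at 61 in normal replicate 4.

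Trim6 and Olfr659 moved together more closely than Poisson counting of independent reads would give. The ratio of Olfr659 to Trim6 counts was 1.27 ± 0.00438 (SD) over 10 libraries, with a lowest value of 1.266 and a highest of 1.277. That is a coefficient of variation of 0.345%, where Poisson counting of these numbers would give 0.521% to 1.15% in a single library. In normal replicate 4 the ratio was 0.00404. The genes lie on the same strand about 0.4 Mb apart, and other genes lie between them.

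The ratio was close to that of the lengths of 2 annotated transcripts, 4842 bases for the longer of Olfr659 and 3827 for the longest of Trim6. Trim6 counts were therefore divided by 3827 to give a level in counts per base. It was 4.97, 3.53, 17.3, 3.95, 5.51 and 5.41 in normal replicates 1 to 6 and 4.20, 9.50, 5.39, 4.66 and 9.50 in cancer replicates 1, 2, 3, 4 and 6. Counts of each other row from Olfr648 to Olfr659 divided by this level give a length in bases, which was set against the annotated transcripts of that row. The Trim6 transcript, each row's nearest transcript and the bounds below were all chosen after the values were seen, and a row with several transcripts has several chances to come near one.

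Between Olfr648 and Olfr659, with Trim6 and Olfr648 left out, 13 rows gave 87 values of at least 1000 counts. Of these, 82 (94.3%) came within 5% of an annotated transcript length and 66 (75.9%) within 1%. On chromosome 7 more than 200 kb beyond the first and last member, 87 rows gave 426 values, of which 37 (8.69%) came within 5% and 10 (2.35%) within 1%. Nearer rows outside the stretch were in neither set. Olfr659 had led to the choice of the Trim6 transcript, and its 10 values match by that choice. Without them, 72 of 77 values of 12 rows (93.5%) came within 5% and 56 (72.7%) within 1%. Where they reached 1000 counts, these rows of the stretch thus held nearly equal counts per base of transcript within a library. They are different genes on both strands: with Trim6, 9 lie on the plus and 5 on the minus strand. Rows of the stretch below 1000 counts in every library were not matched.

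Olfr656, the olfactory receptor row with the highest counts after Olfr648 and Olfr659, gave 4095 to 4140 bases in 10 libraries against 4091 of its nearest transcript. Olfr657 gave 2397 to 2413 against 2397 annotated, and Olfr650-ps1, a receptor pseudogene, gave 2319 to 2321 against 2321 in 4 libraries. Trim5, a restriction factor gene on the minus strand, gave 1469 to 1470 against 1467 annotated in 4 libraries. Olfr659 itself gave 4845 to 4888 bases against 4842, which the choice of transcript fixes. The least close rows were Usp17le-ps, a ubiquitin peptidase pseudogene, with 965 to 1043 against 957, and Olfr658 with 2928 to 3065 against 2915. A row can also sit at the length of one transcript in some libraries and of another in others: Olfr653 gave 1045 to 1046 bases in 2 libraries and 4781 to 4786 in 5, and it has annotated transcripts of 1046 and 4786 bases. The remaining rows of the 13 were Gm6574, Olfr652, Olfr654, Olfr655 and Trim30d. The receptor and Trim rows were named because of this pattern, after it was seen.

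**Figure D2:**
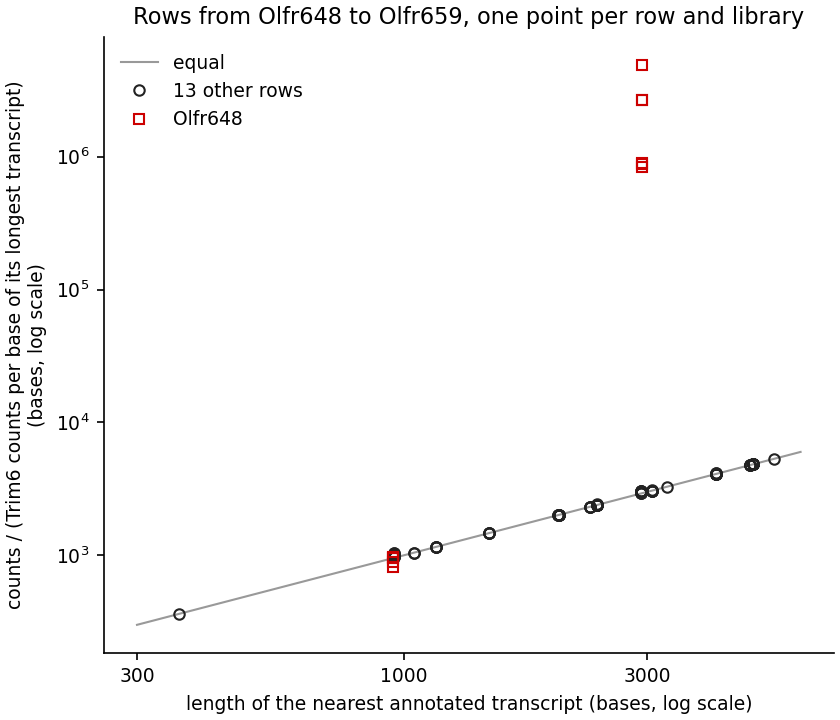
Length in bases given by a row's counts divided by the counts per base of the longest Trim6 transcript in the same library, against the length of the nearest annotated transcript of that row, both axes logarithmic and 1 point per row and library with at least 1000 counts. Circles are the 13 rows between Olfr648 and Olfr659 that had such counts in some library. Of the values drawn for them, 94.3% lie within 5% of the line of equality. Squares are Olfr648, which lies far above the line in 6 libraries. Zeros and lower counts are not drawn.

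Rows of the stretch were either at this level or close to 0. Trim5 and Olfr650-ps1 were at 0 in 7 libraries each, Olfr653 in 4, Olfr655 in 2 and Olfr654 in 1. Trim30d, Gm6574 and Olfr652 were at 0 in 10 libraries and at the level in 1 library each. Of the 14 rows with Trim6, 6 were above 0 in all libraries. In normal replicate 4 Olfr656, Olfr657, Olfr658, Usp17le-ps and Olfr659 held 107, 21, 224, 67 and 61 counts, so that the far end of the stretch was low there, while Trim6 held 15104.

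**Figure D3:**
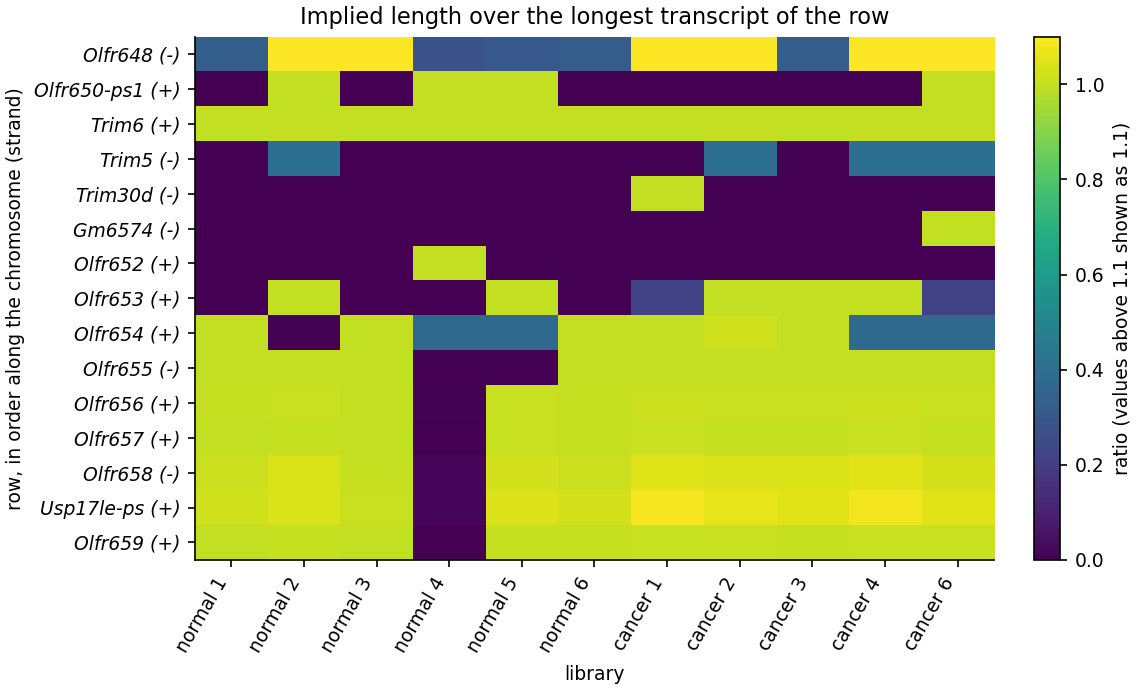
Rows from Olfr648 to Olfr659 in the order of their positions, with strand, against the 11 libraries, coloured by the row's counts divided by the level of Trim6 and by the length of the row's longest transcript, with values above 1.1 drawn as 1.1 and 0 in the darkest colour. Olfr648 is 286 to 1677 in its 6 high libraries and is drawn there as 1.1. In the other rows most cells above 0 lie near 1, or near a lower value where a shorter transcript gives the length, Trim6 is 1 by construction, and the last rows are near 0 in normal replicate 4.

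In the 5 libraries where Olfr648 was low, its counts came near the level of the stretch but matched it less closely than most other rows did. They gave 969, 823, 883 and 951 bases in normal replicates 1, 4, 5 and 6 and 952 bases in cancer replicate 3, against 951 bases of its shorter transcript, the nearer of 2. Of these 5 values 3 lay within 5%, and normal replicates 4 and 5 were lower. In the 6 high libraries it was 286 to 1677 times what the longer transcript of 2929 bases would hold at that level. The level of Trim6 in counts per base did not part the same libraries: it was 3.53 to 17.3 in the high libraries and 3.95 to 5.51 in the low ones.

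Most rows around the 6 held no counts, and so did most rows of the series. Of all 53546 rows, of any gene type, 21309 were above 0 in any library. That share also stands beside the zeros of the gene lists below. It includes genes that do not code for protein, and the share of protein-coding rows alone was not taken. It therefore does not show whether zeros in the window or in the lists are usual for such genes. From 200 kb before the first to 200 kb after the last member there were 63 protein-coding rows, of which 43 were at 0 in all libraries, 3 summed to fewer than 1000 counts and 17 to at least 1000. Of 40 olfactory receptor rows 28 were at 0 and 10 had at least 1000 counts, and of the 23 other rows 15 and 7. The 8 highest sums were 72603170 in Olfr648, 339994 in Olfr659, 287607 in Olfr656, 282679 in Trim6, 276590 in Olfr661, 209103 in Olfr658, 171026 in Olfr654 and 168092 in Olfr657. Olfr661, beyond Olfr659, is the only one of these outside the stretch, and it was in neither set of the length comparison. It held 65948 counts in normal replicate 3 and 603 in normal replicate 4, against 66034 and 15104 in Trim6. Olfactory receptor genes are known for use in the nose, and other genes of the olfactory epithelium were read beside them: Adcy3, the adenylyl cyclase of odour signalling, had 19.7 ± 6.18 TMM-scaled CPM in normal (SD, n = 6) and 29.3 ± 4.12 in cancer serum (n = 5), and Gnal, its G protein, 0.876 ± 0.883 and 0.674 ± 1.34.

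Whether reads placed on mm10 could have been counted at gene positions of the later mouse build GRCm39 was examined as far as mm10 positions allow. GRCm39 positions were not used here, so the shift between the builds at this locus was not measured. Instead the exons of Hbb-bs and Hbb-bt were moved along chromosome 7 toward higher coordinates, and the bases falling on exons of the rows with counts on the same strand were counted. Hbb-bs lay over exons of Olfr648 at moves between 349502 and 356858 bases, with all of its 768 exon bases at best. Hbb-bt lay over exons of Olfm5 at moves between 339017 and 352307 bases, with at most 696 of 703 bases. Neither range is unbroken, because introns lie between the exons. A single move put Hbb-bs over Olfr648 and Hbb-bt over Olfm5 for 994 offsets, in runs from 350738 to 351053, from 351073 to 351392 and from 351950 to 352307 bases.

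A move of about 351 kb and these pairs of rows had been proposed together, with the counts known. That 351 kb lay inside that range is therefore no test of the move, and the overlap with Olfm5 was small. At 351000 bases, the centre of the first run to the nearest kb, 704 bases of Hbb-bs lay on the longer Olfr648 transcript, 0 on the shorter one, and 54 bases of Hbb-bt lay on Olfm5. Over all joint offsets Hbb-bt reached at most 98 bases of Olfm5. The coding part of the longer Olfr648 transcript (chr7:104179459-104180406) lies outside the overlap at 351 kb. The same move put neither beta-globin gene over Trim6 or Olfr659: Hbb-bs reached Trim6 only between 390697 and 408618 bases and Olfr659 between 838657 and 848414 bases, without regard to strand. Moved back by 351 kb, Trim6 exons lay over 1195 bases of Olfr66, an olfactory receptor row at 0, on the other strand, and Olfr659 over no coding gene's exon.

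**Figure D4:**
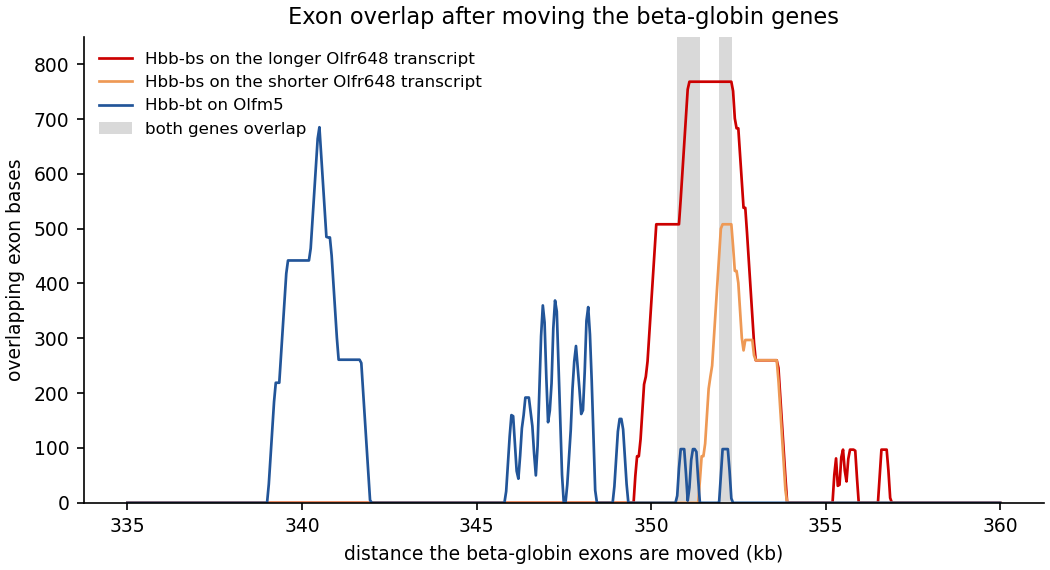
Exon bases of Hbb-bs lying on the longer and on the shorter Olfr648 transcript and of Hbb-bt lying on Olfm5, on the same strand, against the distance in kb by which the beta-globin genes were moved toward higher coordinates in mm10. Shaded bands mark the 3 runs of moves at which both genes overlap, between 350.738 and 352.307 kb (the first and second run nearly adjoin), where Hbb-bt reaches at most 98 bases.

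The same move was applied to the olfactory receptor rows of chromosome 7 within 4 Mb that lie outside the 1.26 Mb window just described. Moved back by 351 kb, 6 of 65 rows with counts (9.23%) lay over an exon of a protein-coding gene that is not an olfactory receptor, on the same strand. Of 86 rows at 0 it was 1 (1.16%), a difference of 8.07 percentage points. Neighbouring rows fall on the same genes and are not independent, so no interval is given. Set among offsets from 5 to 1000 kb back in steps of 5 kb, this difference ranked 62nd. The highest was 18.4 points at an offset of -700 kb. Close to the tested move, the difference was 18.1 points at -345 kb, 9.98 at -350000 bases and 11.9 at -355000 bases. The shift between the builds was not measured, so the rank at 351 kb alone cannot test a move near it. On either strand 16 of 65 rows with counts (24.6%) and 4 of 86 at 0 (4.65%) lay over such an exon, which ranked 29th. On the same strand at 351 kb, Olfr571 (2173 counts summed) lay over 938 bases of Trim21, whose own row held 75. Olfr544 (955) and Olfr543 (598) lay over 281 and 143 bases of Nup98, a nuclear pore gene (735). Olfr550 (579) lay over Pgap2 (7), Olfr562-ps1 (517) over Stim1 (1229) and Olfr481 (5) over Ppfibp2 (0). Olfr551, with more counts (2271), lay over Pgap2 on the other strand. What the own rows of these genes mean for the move was not tested. Other moves gave larger differences on the same strand and on either strand. Several other windows, kinds of row, count bounds and choices of offset had been looked at before this one, and which annotation was counted is not stated by any source used here.

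Between the groups, Olfm5 was lower in colorectal cancer, and Trim6, Olfr659 and Olfr648 did not pass the test. Scaled to the library total without Olfr648, Olfm5 stood at 45.2, 37.7, 38.5, 52.3, 36.9 and 41.2 CPM in normal replicates 1 to 6. It stood at 14.1, 6.54, 21.2, 23.9 and 9.56 in cancer replicates 1, 2, 3, 4 and 6. The lowest normal library lay above the highest cancer library, and the means were 42.0 ± 5.91 (SD, n = 6) and 15.0 ± 7.41 (n = 5). Raw counts were 130 to 151 and 46 to 129, so the width of the gap rests in part on the scaling. Totals without Olfr648 were 2885958 to 4089488 in normal and 3727908 to 7033966 in cancer libraries. TMM factors were 0.8115 to 0.9981 and 1.0879 to 1.1945, with no overlap. In edgeR's quasi-likelihood test with TMM factors, the log2 fold change from normal to cancer was -1.82 with a standard error of 0.30, and the adjusted p was 0.0084 (Benjamini-Hochberg over 8279 rows, two-sided). TMM-scaled values were 46.7 ± 7.80 and 13.3 ± 6.40. Of the 6 rows, 4 passed the filter on low counts and 1 of those was called, lower, where 2.65% of all tested rows were called, 1.49% lower and 1.16% higher. Groups parted with cancer lower in 1.86% of all tested rows. The members were proposed with these values known, and 46 to 151 counts per library lie behind each value.

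Trim6 stood at 6283, 3911, 17895, 5234, 5159 and 6374 CPM in the normal libraries and 3474, 5168, 5533, 3301 and 5886 in the cancer libraries, so that the groups overlapped. Its means were 7476 ± 5183 (SD, n = 6) and 4672 ± 1202 (n = 5), and the log2 fold change of -1.02 (SE 0.40) did not pass (edgeR adjusted p = 0.278). Without normal replicate 3 it was -0.53. Olfr659 stood at 7955, 4970, 22653, 21.1, 6537 and 8078 in the normal and 4436, 6590, 7035, 4216 and 7492 in the cancer libraries, with means of 8369 ± 7601 and 5954 ± 1522. Its log2 fold change of -0.83 (SE 0.98) did not pass either (edgeR adjusted p = 0.807), and was -0.22 without normal replicate 3 and -1.10 without normal replicate 4. Since Trim6 and Olfr659 share a level in 10 libraries, their values are not separate measurements of a group difference.

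Olfr648 ranged from 1125 to 5020801 CPM of the other rows in normal serum, with a median of 1588, and from 1377 to 2427316 in cancer serum, with a median of 1372802. The means, 1525758 ± 2378374 (SD, n = 6) and 1444528 ± 982672 (n = 5), differed by less than the spread in either group. Its log2 fold change was -0.40 with a standard error of 2.25 (edgeR adjusted p = 0.968), and it turned to 0.43 without normal replicate 2 and to 0.25 without normal replicate 3. With libraries of 2 kinds in both groups, no direction can be read for this row.

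**Figure D5:**
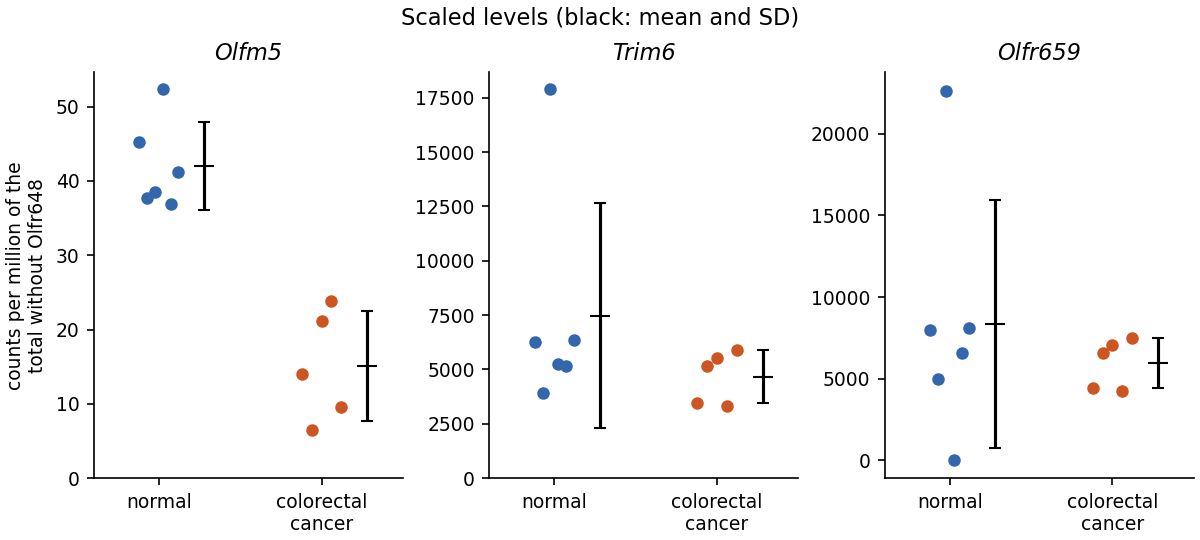
CPM of the library total without Olfr648 for Olfm5, Trim6 and Olfr659 in normal (n = 6) and colorectal cancer (n = 5) libraries on linear axes, 1 point per library, with the mean and SD in black. The groups are apart in Olfm5, at 36.9 to 52.3 and 6.54 to 23.9, and overlap in the other rows, where normal replicate 3 is highest.

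The rows outside chromosome 7 that were most like each member over the 11 libraries were found by Pearson's r of log2(CPM + 1) among 5846 tested rows. Olfm5 was most like Nthl1, a DNA repair glycosylase (r = 0.984), Fam220a (0.98) and Plaat3 (0.979). Olfr648 was most like Lias, the lipoic acid synthase (0.914), Dlg4 (0.906) and Rpl38-ps1 (0.88), Olfr659 like Amn (0.98), Trim43a and Ube4a (0.966 each), and Trim6 like Trbv15 (0.891), Fbxl20 (0.872) and Castor2 (0.852). All points share the library totals, and the pairs were the highest of many. For Olfr659 and Trim6, a single library lies far from the rest.

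Other genes of the red blood cell programme were read beside the beta-globin zeros, in TMM-scaled CPM. None of 3 tested globin rows passed: Hba-x went from 16.4 ± 2.99 to 20.6 ± 2.52 and Hba-a1 from 9.39 ± 3.02 to 9.67 ± 2.44 (edgeR adjusted p 0.449 and 0.97). None of 4 tested genes of heme synthesis and iron passed, with Cpox, an enzyme of the pathway, at 27.8 ± 7.75 and 33.4 ± 9.44. Of 8 tested erythroid genes 4 fell and none rose, where 1.49% of all tested rows were called lower and 1.16% higher. The gene lists here and below were chosen with earlier results of these data known, so counts of calls in them are a description. Hemgn, a nuclear protein of erythroid precursors, fell from 97.8 ± 19.7 to 30.8 ± 11.3, a log2 fold change of -1.67 (SE 0.26, edgeR adjusted p = 0.0068). Add2, a membrane skeleton gene, fell by 1.80 on the log2 scale (SE 0.44, adjusted p = 0.0495), and passed in 9 of 20 alternative settings. The others, named after their values were seen, were Tspan33, which passed in 20 of 20 settings, and Tmod1, which passed in 16 and was lost without cancer replicate 1 (adjusted p = 0.0525) or 6 (0.0542), without a filter and with a replicate block. In the whole list of 28 erythroid genes 27 had a row, 10 of these were at 0 in all libraries, and the summed level was 1077 to 1767 in normal and 282 to 655 in cancer libraries. Over all tested rows the median log2 fold change was 0.10, over the tested erythroid genes -0.79, over the globins 0.33 and over the heme genes -0.02.

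Of the factors that bind the locus control region or act in globin switching, 5 of 14 were tested and none passed. Chd4, a remodeller of the switching complex, stood at 118 ± 22.0 and 123 ± 24.9, and Ldb1, which joins enhancer and promoter, at 86.6 ± 6.33 and 77.2 ± 11.2, with a list median of -0.11. Of 13 Trim genes of the region 7 were at 0, and Trim6 was the only one tested. Trim5, which had counts in too few libraries to be tested, had 264.9 ± 648.8 in normal and 963.9 ± 949.0 in cancer serum.

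Of the tested markers of other blood cells, only Itga2b and Cd3e passed, both lower in cancer like Olfm5 and the erythroid genes. The part of other blood cells in these results was not tested. Whether the marker rows hold only reads of the genes they are named for was not tested either. In bulk RNA, fewer cells of a type and less RNA per cell cannot be told apart. Itga2b, a platelet integrin, fell from 1675 ± 321.3 to 761.1 ± 285.2 (log2 fold change -1.14, edgeR adjusted p = 0.0344) and passed in 11 of 20 alternative settings. It was the 1 tested gene of 10 platelet markers, 7 of which were at 0. The list summed to 1185 to 2003 in normal and 356 to 1116 in cancer libraries, most of it Itga2b, so the sum is not separate from that gene. Cd3e, a T cell receptor subunit, fell from 722.8 ± 129.1 to 392.6 ± 86.4 (edgeR adjusted p = 0.0105), the 1 of 5 tested lymphocyte genes that passed. Of 10 lymphocyte markers 3 were at 0, and the list summed to 1970 to 2623 and 1861 to 1970. Neither of 2 tested neutrophil genes passed: Mmp8 stood at 394.3 ± 226.3 and 1129 ± 255.0 (edgeR adjusted p = 0.0832) and Mmp9 at 38.7 ± 7.55 and 48.2 ± 8.46. Of 12 neutrophil markers 7 were at 0, and they summed to 193 to 716 and 797 to 1432, most of it Mmp8. The 1 tested monocyte gene, Ly6c2, stood at 13.4 ± 6.21 and 22.9 ± 8.75, and the 6 monocyte markers, 3 of them at 0, summed to 7.96 to 22.8 and 16.7 to 38.7. The 6 liver genes summed to 1.14 to 8.32 and 4.34 to 12.1, with 2 of them at 0. The 6 olfactory epithelium genes summed to 14.2 to 29.2 and 26.2 to 38.9, most of it Adcy3, with 3 of them at 0. The platelet list, most of it Itga2b, and the lymphocyte list had counts in every library of this material, which the labels call serum and the files blood.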

How the data were processed

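Serum RNA was isolated with TRIzol and turned into stranded total RNA libraries, per the labels' protocols. The deposited values are whole numbers per gene symbol and were treated as unscaled counts. The ratio of Olfr659 to Trim6 varied less than Poisson counting would give, so values of the stretch may not be plain read counts. How they were derived was not tested. Trim Galore, StringTie, HISAT2 and mm10 are named, without versions, in the submitters' processing notes. The annotation, counter and strand setting were not stated in any source used here; counts taken from transcript coverage would carry transcript lengths. Strand-blind counting would mix overlapping genes.

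Each of 12 files held 53546 rows, of which 21309 were above 0 in any library, and none lacked a name. The identical pair was counted once, while other pairs differed in at least 12482 rows. Totals ran from 2889205 to 20774889 counts, and from 2885958 to 7033966 without Olfr648. The design text speaks of separate mice, so each library counted as 1 animal.

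Positions and transcript lengths came from GENCODE M21 (mm10), and 49972 symbols had a single position. Scaling used totals without Olfr648, TMM factors from the other rows and filterByExpr by group. Tests used edgeR 4.0.16 (glmQLFit, robust, and glmQLFTest; R 4.3.3), group as sole term and an adjusted p threshold of 0.05. Steps were tested on simulated data. Alternatives were other scalings, DESeq2 1.42.0, other filters, a block for the replicate number, keeping the repeated file, and leaving out each library. Python 3.11.15, pandas 2.3.3, SciPy 1.17.1 and Matplotlib 3.10.9 were used. The named genes were the 6 members, the globins, the 8 protein-coding rows of the window with most counts, the 3 rows most like each tested member, and from each of 11 lists up to 2 passing genes per direction or the 2 with most counts. The lists were globins, heme synthesis and iron, erythroid cells, locus control and globin switching, Trim genes of the region, platelets, neutrophils, lymphocytes, monocytes, liver and olfactory epithelium. The members and lists were chosen with earlier results of these data known. A gene taken by the rule for named genes is not reported here.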

Additional observations from a re-analysis of the deposited data

Results flagged for a closer look

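In normal serum, Trim6 was far above the other libraries in replicate 3, with 17895 CPM of the total without Olfr648. Its gap to the next library was 0.824 of the range of the 6 normal libraries, above Dixon's 95% critical value of 0.625. Olfr659 was likewise highest in normal replicate 3, at 22653 CPM, with a gap of 0.644 of the range. The ratio of Olfr659 to Trim6 counts was lowest in normal replicate 4, at 0.00404, with a gap of 0.996 of the range. Trim6 and Olfr659 share their level in the other libraries, so the pair of high values in replicate 3 are not separate observations. Chance alone places about 5% of such groups beyond Dixon's value. No explanation was tested.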

How the results depend on the processing

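Olfm5 passed in all 20 alternative settings, with log2 fold changes of -2.02 to -1.49 and edgeR or DESeq2 adjusted p of 2.28e-07 to 0.0429. Trim6 (-1.16 to -0.53, adjusted p 0.194 to 0.464) and Olfr659 (-1.10 to -0.12, adjusted p 0.252 to 0.981) passed in none. Olfr648 passed in none and changed sign in 3. With 1 library left out, Olfm5 ran from -2.02 to -1.62, Trim6 from -1.16 to -0.53, Olfr659 from -1.10 to -0.22 and Olfr648 from -0.70 to 0.43. Its sign changed without normal replicate 2 (0.43) and without normal replicate 3 (0.25).

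Of all tested rows 96 were higher and 123 lower in cancer, or 737 and 401 at an unadjusted p under 0.05. Scaling by totals without Olfr648 and no TMM factors called 1337 higher and shifted the median over all rows from 0.10 to 0.42 (log2), so that 93% of the calls were higher against 43.8%. DESeq2 size factors within edgeR gave 59 higher (28.8% of the calls), DESeq2 161 higher and 236 lower, and the repeated file kept 232 higher. Leaving out 1 library gave 26 to 133 higher and 76 to 125 lower. The number higher was 47, 40, 51 and 48 without normal replicates 1, 2, 5 and 6 and 26, 38, 49 and 32 without cancer replicates 1, 2, 4 and 6, and the number lower was 76 without cancer replicate 1. The cause was not tested.

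With the replicate number as a block, 8 rows were higher and 47 lower, Olfm5 had its highest adjusted p, 0.0429, and Olfr648 turned to 7.66. Same-numbered libraries correlated at -0.096 to 0.047 and 1 of 5 matched its own number best, so these values showed no pairing by number. With so few pairs they cannot exclude one.

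In CPM of the whole total, which the share of Olfr648 lowers by construction, normal and cancer means were 31.5 and 7.92 for Olfm5, 4526 and 2489 for Trim6, and 4633 and 3170 for Olfr659. Those of Olfr648 were 274066 and 503041, so that cancer was the higher group, against 1525758 and 1444528 without it in the total. Of olfactory receptor rows with counts moved by 351 kb, 9.23% lay over exons in the main setting. It was 24.6% on either strand, 1.54% with at least 50% of their bases and 20.8% at 100 counts or more. Of rows at 0 it was 1.16% in the main setting and 4.65%, 0% and 1.16% in these. The differences ranked 62nd in the main setting and 29th, 45th and 15th in these. The highest differences lay at -700 kb in the main setting and at -470, -640 and -345 kb in these. Within 2 Mb, a setting chosen after seeing the data, it was 13.9% against 0% of rows at 0. That difference ranked 80th, with the highest at -700 kb. Transcript lengths were matched within 1% by 75.9% of values, by 92.1% within 5% at 100 counts or more, by 93.5% within 5% without Olfr659, and by 96.4% with the level taken from the longer Olfr659 transcript, which fixes Trim6, all chosen after seeing the data. The limit of depth is 3 counts at the zero rows and 46 to 151 counts at Olfm5.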
